A study of Mus musculus with 8 samples.

Results

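Naive mouse embryonic stem cells (ESC) were set beside the tissue from which such lines are derived, the inner cell mass (ICM) of the blastocyst. The comparison used 4 of the 8 arrays of the series, the 2 titled ESC and the 2 titled ICM, and the arrays were chosen by title alone. All samples were wild type C57BL/6J. The ESC were a cell line from a day 3.5 preimplantation embryo, grown in DMEM with LIF and the kinase inhibitor pair 2i and without feeder cells, and 1 label adds 15% FCS to that medium. The ICM came from day 3.5 blastocysts, was freed by immunosurgery, in which antibody and complement lyse the outer trophectoderm, and was not cultured. The other 4 arrays held EpiSC and FGF-ESC, which are wild type C57BL/6J lines, also labelled as from day 3.5 preimplantation embryos, kept in KODMEM with KSR and FGF2, on mouse embryonic fibroblast (MEF) feeders. They helped to estimate the spread, and EpiSC served as a further cultured point of reference. RNA of the cultured cells was extracted with NucleoSpin II columns and that of the ICM with NucleoSpin XS columns, so culture and extraction kit cannot be told apart. Whether the paired arrays hold separate cultures or embryo pools is not given in the labels. The p-values therefore describe only how far these arrays spread, which may be a technical spread. They give no sex for any sample.

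The ICM at this stage contains precursors of the epiblast, which forms the fetus, and of the primitive endoderm, which forms the yolk sac. FGF4 made by epiblast precursors acts through FGF receptors and the ERK kinases of neighbouring cells and favours the primitive endoderm factor GATA6 over the epiblast factor NANOG. ESC resemble the epiblast precursors but divide without limit in culture: LIF acts through STAT3, and 2i blocks MEK, the kinase above ERK, and GSK3, whose loss stabilises beta-catenin.

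Values are log2 array intensities, so a difference of 1 is a 2-fold change in intensity. Each gene is represented by its brightest probe set, and levels of different genes are not compared. Of 22180 genes, 13597 were tested: those above 4.24, the median of all values, on 2 or more of the 8 arrays. A level under this median is near background, and a difference against such a level depends on that floor. Across these genes, which are not independent replicates, the 2 ESC arrays correlated at r = 0.994 and the 2 ICM arrays at r = 0.983. They lay at least 1 apart for 0 genes in ESC and 80 genes in ICM. All differences below are ESC minus ICM on the log2 scale with limma's SE (n = 2 arrays per group, spread pooled over the 4 groups), and adjusted p-values are limma's with Benjamini-Hochberg adjustment over the 13597 genes.

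The marker genes of the labelled cell types were present. All 7 epiblast markers (Pou5f1, Nanog, Sox2, Fgf4, Klf2, Esrrb and Zfp42) exceeded the median on both ESC and both ICM arrays. Of 9 primitive endoderm markers, 7 did so in ICM and 3 in ESC, and their summed level was 53.7 to 53.9 in ICM and 36.1 to 36.9 in ESC. Of 7 trophectoderm markers, 6 did so in ICM, with Elf5 below, and 5 in ESC, at summed levels of 40.0 to 40.5 and 33.6 to 33.8. Fibroblast markers, measured because MEF were used elsewhere in the series, were above the median for the same number in both groups, 3 of 7, and summed to 27.5 to 27.7 in ESC and 29.0 to 29.5 in ICM. Neither of 2 blood markers nor any of 3 granulosa and oviduct markers exceeded it in either group. In such bulk samples, fewer cells of a type and less RNA per cell cannot be told apart.

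ESC and ICM differed in both directions to a similar extent. A gene was called at an adjusted p below 0.05 and a difference of at least 1. By this rule 791 genes were higher in ESC, 5.82% of those tested, and 757 were lower, 5.57%. Each list count below is to be read beside these shares, and no list was tested against them. At a size of at least 2 there were 168 higher and 177 lower genes, and at a size of at least 4 there were 16 and 29. The median difference over all tested genes was 0.02. In 193 of the higher genes the ICM mean, and in 191 of the lower genes the ESC mean, lay under the median of all values. In all 1548 called genes, both ESC values lay on the same side of both ICM values. The call rule itself favours such genes, so this adds no support, and the share among all tested genes was not counted. The comparison of EpiSC with ICM, which shares the ICM arrays, called 8.48% of genes higher and 6.8% lower in EpiSC. The comparison of ESC with EpiSC called 3.5% higher and 3.86% lower in ESC, 7.36% in either direction. These comparisons share arrays with that of ESC and ICM, and their values are given for single genes, side by side.

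**Figure D1:**
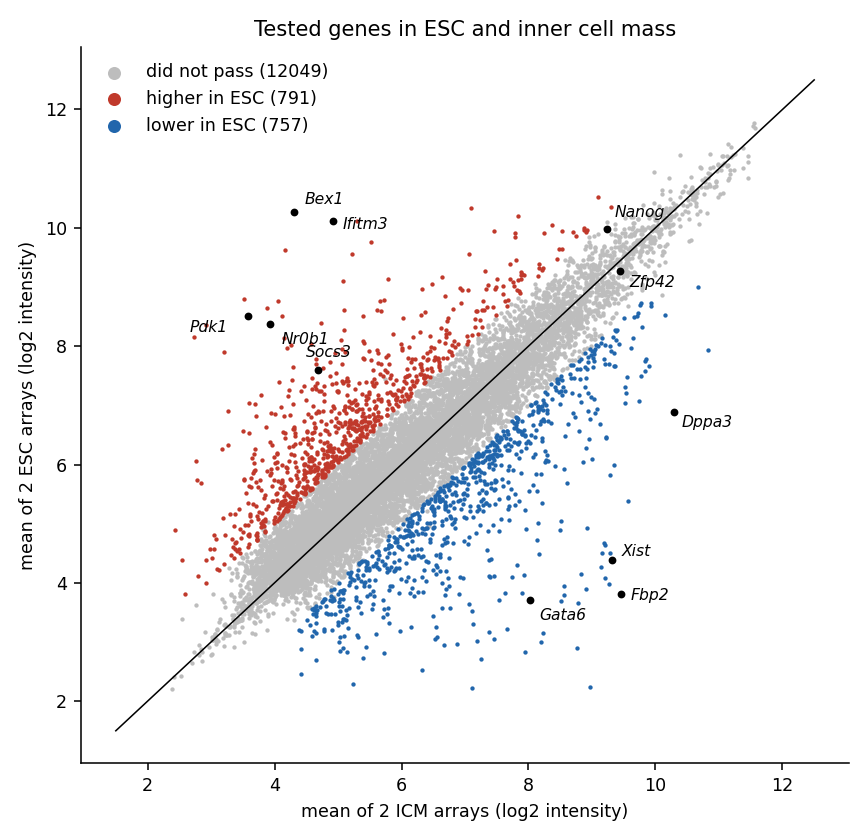
Mean log2 intensity of each of the 13597 tested genes on the 2 ICM arrays (horizontal axis) and the 2 ESC arrays (vertical axis), with the 791 genes called higher in ESC in red, the 757 called lower in blue and the line of equal levels in black. Bex1 and Ifitm3 lie far above the line, Fbp2, Gata6 and Xist far below it, and Nanog and Zfp42 close to it.

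The largest falls in ESC were of genes active in the early embryo and of genes for enzymes and transporters. LOC100039010, a locus without an assigned function, was at 2.26 and 2.23 in ESC and at 9.01 and 8.92 in ICM, a difference of -6.72 ± 0.14 (adjusted p = 1.28e-07). Fbp2, a fructose bisphosphatase of gluconeogenesis, was at 3.86 and 3.76 in ESC and at 9.43 and 9.49 in ICM, a difference of -5.65 ± 0.12. Alppl2, an alkaline phosphatase of the preimplantation embryo, was at 2.92 and 3.09 against 8.25 and 8.15, a difference of -5.19 ± 0.12. The ICM arrays stood above the ESC arrays for each of these genes. Absence of overlap was a condition for the choice of the largest falls and rises, so it adds no support. Khdc3, a member of the subcortical maternal complex of the oocyte, differed by -5.11 ± 0.17. Khdc1a and Khdc1c, KH domain genes expressed in oocytes and early embryos, differed by -5.29 ± 0.20 and -5.12 ± 0.34. Pramel5 and Pramel6, of the PRAME-like family, differed by -5.86 ± 0.13 and -4.77 ± 0.15. Trim43a, a TRIM family gene of the preimplantation embryo, and the X-linked Magea5, of the melanoma antigen family, differed by -5.01 ± 0.13 and -4.88 ± 0.14. The Khdc1, Pramel, Trim43 and Magea genes have close copies in the mouse genome, so the probe sets may not tell the copies apart. Slc1a1, a glutamate and aspartate carrier, and Slc43a3, a purine base carrier, differed by -5.12 ± 0.15 and -4.88 ± 0.25. The aminopeptidase Enpep differed by -5.09 ± 0.11 and the glutaredoxin Glrx by -4.82 ± 0.36.

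The EpiSC means of these 15 genes ran from 2.16 for Magea5 to 5.24 for Glrx. Their EpiSC minus ICM differences, which rest on the same ICM arrays, ran from -6.61 for LOC100039010 to -3.27 for Glrx. ESC minus EpiSC ran from -1.55 for Glrx, which was called, to 0.35 for Khdc3, which was not. In 12 of the 15 the ESC mean lay under the median of all values.

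The largest rises included a cluster of X-linked genes. Bex1, which encodes a small adaptor protein known from neurons, was at 10.26 and 10.29 in ESC and at 4.93 and 3.70 in ICM, a difference of 5.96 ± 0.33 (adjusted p = 8.96e-06). The ICM arrays were 1.23 apart for this gene, and both were far below the ESC arrays. Its relatives Bex2, Bex4 and Tceal9, which lie near it on the X chromosome, were higher by 4.70 ± 0.30, 4.34 ± 0.17 and 4.25 ± 0.37, and they too have close copies. Stmn2, a stathmin that destabilises microtubules, was at 9.65 and 9.62 in ESC and at 4.23 and 4.10 in ICM, a difference of 5.47 ± 0.14. Ifitm3, an interferon-inducible membrane protein that restricts virus entry, was at 10.16 and 10.07 against 4.81 and 5.02, a difference of 5.20 ± 0.14. Both groups were tight for these genes. Pdk1, a kinase that switches off pyruvate dehydrogenase, was at 8.49 and 8.52 against 3.51 and 3.65, a difference of 4.92 ± 0.17. Its other probe set gave 1.70, also called. The imprinted zinc finger gene Plagl1 was higher by 5.44 ± 0.40, and its other probe set gave 1.57. Further large rises were of Rny3 (5.42 ± 0.21), a small RNA of the Ro particle, Lrrc34 (5.29 ± 0.31), the tetraspanin Cd81 (4.81 ± 0.29), the secreted phospholipase Pla2g1b (4.77 ± 0.30), the calcium-binding Rcn1 (4.68 ± 0.24), the nuclear receptor Nr0b1 (4.44 ± 0.32) and the membrane peptidase Mme (4.39 ± 0.20).

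The EpiSC minus ICM differences of these 15 genes, again with the same ICM arrays, ran from 0.02 for Nr0b1 to 6.03 for Bex1. They were 0.69 for Lrrc34 and 0.82 for Pla2g1b, neither of them called. ESC were higher than EpiSC by 4.59 for Lrrc34, 4.41 for Nr0b1, 3.95 for Pla2g1b, 2.65 for Mme and 1.83 for Plagl1, each called. Stmn2 and Ifitm3 lay at like levels in ESC and EpiSC, with ESC minus EpiSC differences of 0.04 and 0.0047, neither called. In 10 of the 15 the ICM mean lay under the median of all values.

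**Figure D2:**
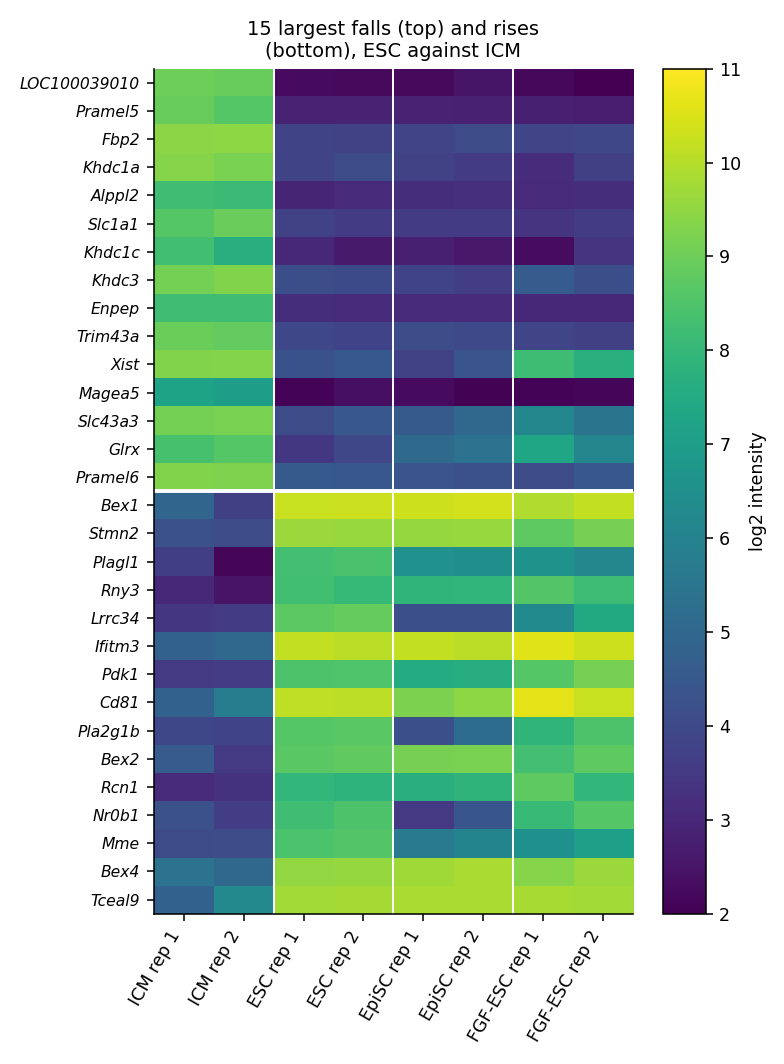
Log2 intensity (colour) on each of the 8 arrays for the 15 largest falls (upper rows) and the 15 largest rises (lower rows) between ESC and ICM. The EpiSC columns look like the ESC columns for most of the falls, while for Lrrc34, Pla2g1b and Nr0b1 they look like the ICM columns.

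The core pluripotency genes were expressed in both groups, and a part of them was higher in ESC. Of 13 tested, 3 were higher (23.1%) and 1 lower (7.69%), beside 5.82% and 5.57% of all tested genes. The median difference was 0.37. Sox2, a partner of OCT4 on DNA, was at 9.40 and 9.52 in ESC and at 7.87 and 7.74 in ICM, a difference of 1.65 ± 0.20 (adjusted p = 0.000475). Fgf4, the ligand that epiblast cells send to their neighbours, was at 8.06 and 8.04 against 6.64 and 6.71, a difference of 1.37 ± 0.22. For both genes the ESC arrays lay above the ICM arrays, as for every gene called higher. Both were also higher in ESC than in EpiSC, by 1.38 and 1.98. The RNA-binding Lin28a was higher by 1.06 ± 0.12, and by 0.98 when each array was centred on its median, just under the limit. Dppa2, a chromatin factor of early embryos, was the lower gene, at 7.53 and 7.63 against 9.70 and 9.97, a difference of -2.25 ± 0.15. Pou5f1, which encodes OCT4, was at 6.43 and 6.44 in ESC and at 6.47 and 6.66 in ICM, a difference of -0.13 ± 0.12 (adjusted p = 0.441). Nanog was at 10.002 and 9.97 against 9.22 and 9.25, a difference of 0.75 ± 0.21 (adjusted p = 0.0255) that stayed under the size limit.

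Among genes of the naive state, 9 of 27 tested were higher in ESC and 3 lower, with a median of 0.42. The shares were 33.3% and 11.1%, beside 5.82% and 5.57% of all tested genes. Nr0b1, given above, which binds OCT4, was the largest rise. Zscan10, a zinc finger factor of stem cells, was at 6.84 and 6.88 in ESC and at 4.52 and 4.54 in ICM, a difference of 2.33 ± 0.16. Klf4, a Krüppel-like factor downstream of STAT3, was at 8.61 and 8.56 against 7.23 and 7.11, a difference of 1.42 ± 0.13. The groups did not overlap for either gene, as in all called genes. Zfp57, which protects imprints, and the lysosomal mannosidase Manba were higher by 1.39 ± 0.16 and 2.21 ± 0.18. Prdm14, a repressor of the ERK and DNA methylation programmes, was called at 1.06 ± 0.20 but fell just under the size limit without ESC replicate 2 (0.96), without ICM replicate 2 (0.97) and with centred arrays (0.97). Esrrb, an orphan nuclear receptor, differed by 0.94 ± 0.16 and was called without ESC replicate 2 (1.07) and without ICM replicate 2 (1.13). The difference was -0.11 ± 0.21 for Klf2, -0.56 ± 0.27 for Klf5, 0.47 ± 0.16 for Tfcp2l1, -0.17 ± 0.21 for Zfp42 and -0.29 ± 0.14 for Tbx3, and none of the 5 was called.

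The 3 naive genes that were lower in ESC included Dppa3, also called Stella, which protects the maternal genome from demethylation after fertilisation. It was at 6.87 and 6.91 in ESC and at 10.38 and 10.19 in ICM, a difference of -3.40 ± 0.26 (adjusted p = 4.98e-05). The orphan receptor Nr5a2 was lower, with a difference of -1.25 ± 0.14. The 5-methylcytosine oxidase Tet2 was called at -1.04 ± 0.22, and was not called without ESC replicate 1 (-0.94), without ICM replicate 2 (-0.87) or after quantile normalization (-0.97). In EpiSC all 3 lay lower still: EpiSC minus ICM was -5.84 for Dppa3, -4.01 for Nr5a2 and -4.26 for Tet2, and ESC minus EpiSC was 2.45, 2.76 and 3.23, each called. These genes thus had an ESC level between the ICM and EpiSC levels.

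A list of genes of the preimplantation and diapause ICM was lower more often than higher in ESC, with a median of -0.79. Of 17 tested, 8 were lower (47.1%) and 3 higher (17.6%), beside 5.57% and 5.82% of all tested genes. The list was drawn up with earlier results known and holds Alppl2, given above among the largest falls. Its count therefore in part restates them and is no independent support. Spic, an ETS family factor, was at 3.78 and 3.86 in ESC and at 7.89 and 7.91 in ICM, a difference of -4.08 ± 0.12 (adjusted p = 4.46e-07). Pemt, which makes phosphatidylcholine from phosphatidylethanolamine, was at 4.77 and 5.07 against 9.08 and 8.76, a difference of -4.0 ± 0.15. Calcoco2, a receptor of selective autophagy, was at 7.83 and 8.04 against 10.70 and 10.95, a difference of -2.89 ± 0.15. The ICM arrays were the higher ones in each case, as for every gene called lower, and Spic in ESC was near background. The phosphate carrier Slc34a2 and the fatty acid binding protein Fabp5 were lower, with differences of -3.18 ± 0.19 and -1.66 ± 0.17. The other probe sets of Fabp5 gave -2.89, -2.93 and -1.66, each called. Calcoco2 alone of these 5 was called between ESC and EpiSC in the direction of ESC, at 4.34. The 3 higher genes were Gdf3, a TGF-beta family ligand (1.23 ± 0.16), Fgfbp1, which carries FGF in the matrix (3.33 ± 0.53), and Morc1, a repressor of transposons (1.31 ± 0.25, and 0.97 without ICM replicate 1, just under the limit).

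Of 33 primitive endoderm genes tested, 11 were lower (33.3%) and 5 higher (15.2%), beside 5.57% and 5.82% of all tested genes. The median was -0.58. Of the 9 receptor and endocytosis genes 6 were lower and 0 higher, with a median of -2.01. Gata6, the factor that starts the lineage, was at 3.73 and 3.68 in ESC and at 8.0 and 8.04 in ICM, a difference of -4.32 ± 0.15 (adjusted p = 7.61e-07). Pdgfra, the platelet-derived growth factor receptor that marks the lineage, was at 4.07 and 4.19 against 8.06 and 7.82, a difference of -3.81 ± 0.39. Fgfr2, an FGF receptor, was at 4.06 and 3.99 against 6.43 and 6.34, a difference of -2.36 ± 0.17. For all 3, both ESC arrays were under the median of all values and both ICM arrays well above it. The endocytic receptors Cubn and Lrp2 were lower, with differences of -3.59 ± 0.13 and -2.81 ± 0.21. Of the 7 transcription factors in the list Gata6 was the lower one, and Sall1, a zinc finger factor, was higher, at 7.72 and 7.55 against 6.58 and 6.35, a difference of 1.17 ± 0.17. The other 5 were not called. Gata4 was at 4.84 and 4.90 against 4.88 and 5.24, a difference of -0.20 ± 0.15 (adjusted p = 0.36). Sox17 differed by -0.46 ± 0.18, Hnf4a by -0.45 ± 0.12, Foxq1 by -0.65 ± 0.17 and Foxa2 by -0.19 ± 0.18.

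The basement membrane genes of the same list went both ways. Of 17 matrix and secreted genes 4 were lower and 4 higher, 23.5% each way beside 5.57% and 5.82% of all tested genes. The laminin chain Lamb1 was at 5.35 and 5.36 in ESC and at 8.13 and 8.28 in ICM, a difference of -2.85 ± 0.28, and the prolyl hydroxylase P4ha2, which matures collagen, differed by -2.24 ± 0.19. The partner chains of Lamb1 went the other way: Lamc1 was at 9.19 and 9.07 against 7.59 and 7.84, a difference of 1.42 ± 0.13, and Lama1 was higher by 1.16 ± 0.14. Nidogen 2, which links laminin to collagen, was higher too (Nid2, 3.06 ± 0.20), as was Sparc (1.67 ± 0.17), a collagen-binding glycoprotein. From the separate list of matrix and integrin genes, the heparan sulfate core protein Hspg2 was higher by 2.18 ± 0.24. Lamb1 was also called lower in ESC than in EpiSC, with a difference of -1.92.

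**Figure D3:**
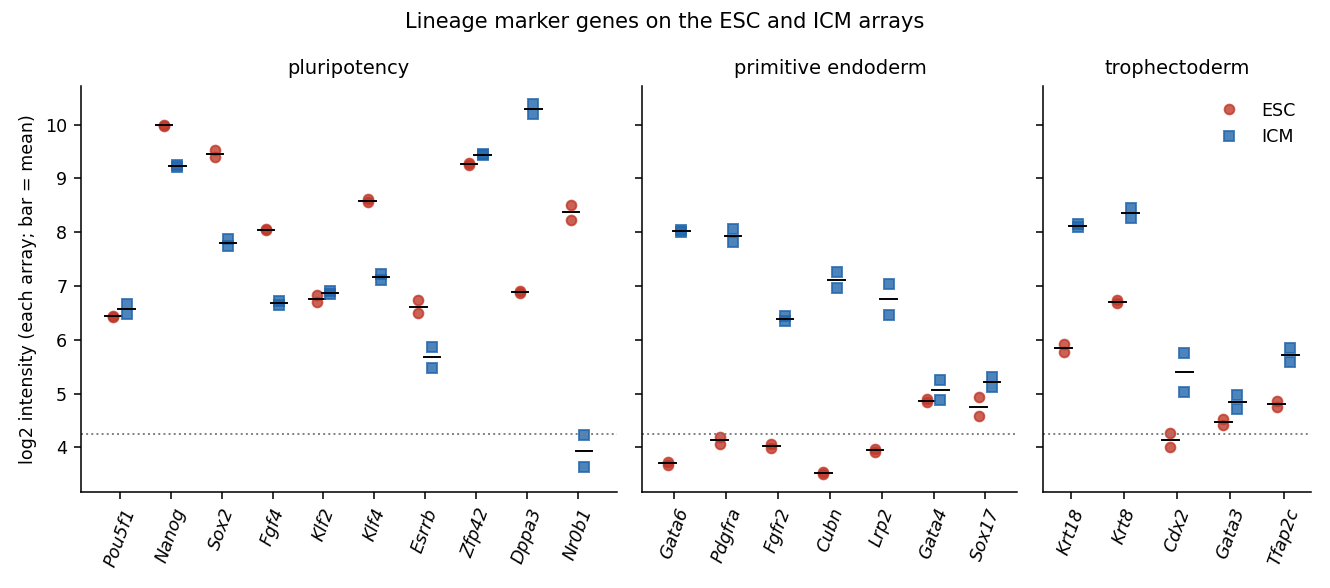
Log2 intensity of pluripotency, primitive endoderm and trophectoderm genes on each ESC array (circles) and ICM array (squares), with bars at the mean of 2 arrays and a dotted line at the median of all values, 4.24. Gata6, Pdgfra, Cubn and Lrp2 lie under the line in ESC and far above it in ICM, while Pou5f1, Klf2 and Zfp42 lie at like levels in both.

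Of 31 trophectoderm genes tested 10 were lower in ESC (32.3%) and 2 higher (6.45%), beside 5.57% and 5.82% of all tested genes. The median was -0.58. Krt18 and Krt8, the paired keratins of simple epithelia, were lower, with differences of -2.28 ± 0.31 and -1.65 ± 0.33. Krt18 was at 5.91 and 5.78 in ESC and at 8.14 and 8.10 in ICM, and its other probe set gave -2.31. The epithelial factor Grhl2, the tetraspanin Tspan8 and the tight junction protein cingulin (Cgn) were lower, with differences of -1.58 ± 0.16, -2.90 ± 0.31 and -1.39 ± 0.24. Cdx2, the factor that fixes trophectoderm fate, was at 4.26 and 4.01 against 5.76 and 5.02, a difference of -1.26 ± 0.24. The ICM arrays stood 0.73 apart, and without ICM replicate 1 the difference was -0.89 and was not called. Gata3, another trophectoderm factor, differed by -0.37 ± 0.13 on the probe set used, which was not called, and by -1.34 on its other probe set, which was. Tfap2c differed by -0.91 ± 0.22, and was called at -1.03 without ICM replicate 2. The 2 higher genes were Slc2a3, a glucose carrier (3.0 ± 0.23), and the ETS factor Ets2 (2.02 ± 0.18). Immunosurgery removes trophectoderm, and the part that outer cells left in the ICM samples may play in these values was not tested.

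Maternal transcripts were for the most part near background in both groups. Of 45 such genes on the array, 17 passed the filter on dim genes, and a count over those 17 does not stand for the list. Khdc3, given above, and the NLR family gene Nlrp4c (-2.46 ± 0.22) were lower in ESC. Ooep, another member of the subcortical complex, was higher, at 7.71 and 7.56 in ESC against 6.12 and 6.29 in ICM, a difference of 1.43 ± 0.18. Tcl1, a coactivator of the AKT kinase, was higher by 2.02 ± 0.26 and Nlrp4f by 1.47 ± 0.24. Members of the same oocyte complex therefore differed in direction. Of 25 genes of the 2-cell stage, 9 were tested and 1 was called, Ubtfl1 (-1.16 ± 0.13). Without ICM replicate 2, 1 of the 9 was higher and 2 were lower. Zscan4a and Zscan4d, which mark rare 2-cell-like ESC, differed by -0.47 ± 0.12 and -0.08 ± 0.13.

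In the LIF pathway the receptor gene Lifr and the feedback inhibitor gene Socs3 were higher in ESC. Of 26 tested genes 4 were higher and 3 lower, with a median of -0.14. The shares were 15.4% and 11.5%, beside 5.82% and 5.57% of all tested genes. Socs3, the STAT3 target that shuts the receptor off, was at 7.62 and 7.57 in ESC and at 4.56 and 4.79 in ICM, a difference of 2.92 ± 0.14 (adjusted p = 4.59e-06). Its other probe set gave 0.88, which was not called. Lifr, the LIF receptor, was at 6.94 and 7.24 against 5.33 and 5.54, a difference of 1.65 ± 0.14. The STAT3 target Bcl3 was higher by 1.80 ± 0.24. Socs3, Lifr and Bcl3 were also higher in ESC than in EpiSC, by 1.53, 1.96 and 2.67. The EpiSC labels name no LIF, but medium, 2i and feeders differ as well, and a part played by LIF was not tested. The targets Pramel6 and Pramel7 went the other way: Pramel7 was at 3.87 and 3.71 in ESC and at 8.61 and 8.51 in ICM, a difference of -4.77 ± 0.15. The shared receptor chain Il6st and the kinase Jak1 differed by -0.15 ± 0.18 and 0.08 ± 0.20.

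Listed genes downstream of the kinases blocked by 2i showed no common direction in RNA. Kinase activity was not measured, and an effect of 2i was not tested. Of 29 ERK targets and feedback genes 4 were higher in ESC and 3 lower, with a median of 0.02. The shares were 13.8% and 10.3%, beside 5.82% and 5.57% of all tested genes. Dusp6, a phosphatase that ERK induces and that switches ERK off, was at 7.5 and 7.57 in ESC and at 8.11 and 8.01 in ICM. The difference of -0.52 ± 0.12 (adjusted p = 0.00966) stayed under the size limit. On the other probe set of Dusp6 it was -0.13, which was not called. Spry4, a feedback inhibitor of the same pathway, was at 5.68 and 5.71 against 4.77 and 4.95, a difference of 0.83 ± 0.22. Phlda1, an ERK target, was lower, with a difference of -2.24 ± 0.29, and without ICM replicate 2 the count of lower genes in the list was 1. Cyclin D1 (Ccnd1), a target of both ERK and beta-catenin, was at 8.06 and 8.02 against 5.98 and 6.00, a difference of 2.05 ± 0.20, and the ephrin receptor Epha2 was higher by 1.48 ± 0.19. Of 22 immediate early genes 0 were higher (0.0%) and 3 lower (13.6%): Ccn2 (-1.06 ± 0.16), Jun (-1.66 ± 0.49) and Klf6 (-1.05 ± 0.31). The other probe set of Ccn2 gave -0.27, which was not called. None of the 3 calls held in all fits with 1 array left out. Jun missed the adjusted p in 3 of these fits, at -1.6, -1.71 and -1.22, Klf6 in all 4, at -1.1 to -0.998, and Ccn2 fell just under the size limit in 2, at -0.99 and -0.93. Without ESC replicate 1 the list had 0 higher and 1 lower genes, without ESC replicate 2 1 higher and 0 lower, without ICM replicate 1 1 higher and 2 lower, and without ICM replicate 2 0 higher and 1 lower.

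Of 33 WNT and beta-catenin genes 3 were higher and 3 lower, with a median of 0.09. The shares were 9.09% each way, beside 5.82% and 5.57% of all tested genes. Axin2, a direct beta-catenin target, was at 6.22 and 6.33 in ESC and at 6.46 and 6.56 in ICM, a difference of -0.23 ± 0.14, and its other probe set gave -0.74. Lef1 differed by -0.25 ± 0.17 and Sp5, another target, by 0.47 ± 0.15, and none of them was called. The DNA-binding partners of beta-catenin moved in opposite directions: Tcf7l1, which represses pluripotency genes, was at 6.98 and 7.0 against 4.29 and 4.93, a difference of 2.38 ± 0.19, while Tcf7l2 was lower, with a difference of -1.29 ± 0.17. The secreted WNT inhibitor Sfrp1 was higher by 1.97 ± 0.24. In the Nodal pathway 3 of 16 genes were higher (18.8%) and 0 lower (0.0%), beside 5.82% and 5.57% of all tested genes. They were Gdf3, given above, the Nodal inhibitor Lefty2 (1.67 ± 0.32) and Nodal itself (1.14 ± 0.20, and 0.9989 without ICM replicate 1, just under the limit). Otx2, a factor of the primed epiblast, was lower in ESC, at 4.93 and 4.87 against 6.12 and 6.09, a difference of -1.2 ± 0.19. The primed marker Fgf5 was near background in both, at 3.07 and 3.10 against 3.15 and 2.87.

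Genes of the DNA methylation machinery differed at a few members. Of 17 tested 4 were higher (23.5%) and 2, Dppa3 and Tet2, lower (11.8%), beside 5.82% and 5.57% of all tested genes. Dnmt3l, the cofactor of the de novo methyltransferases, was at 7.22 and 7.0 in ESC and at 5.80 and 6.02 in ICM, a difference of 1.2 ± 0.14 (adjusted p = 0.000417). The enzymes it assists differed less: Dnmt3a was at 6.17 and 6.10 against 6.61 and 6.52, a difference of -0.43 ± 0.11, and Dnmt3b differed by -0.23 ± 0.14. The maintenance enzyme Dnmt1 was called at 1.04 ± 0.13, and lay under the size limit without ICM replicate 1 (0.96) and with centred arrays (0.95). Its partner Uhrf1 differed by 0.75 ± 0.14 and the oxidase Tet1 by 0.20 ± 0.18. Gadd45b, linked to demethylation and stress, was higher by 2.23 ± 0.31.

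Germline genes that DNA methylation is known to silence were more often lower than higher in ESC: 9 of 24 tested were lower and 3 higher, with a median of -0.20, and 13 of the 37 on the array were too dim to test. Asz1, needed for piRNA-directed silencing in the testis, was at 2.67 and 2.79 in ESC and at 5.45 and 5.34 in ICM, a difference of -2.66 ± 0.13 (adjusted p = 4.47e-06). Stk31 (-1.99 ± 0.15), Sycp1 (-1.92 ± 0.19), a rod of the synaptonemal complex, and Mael (-1.90 ± 0.22), a piRNA pathway protein, were lower as well. Both ESC arrays lay near background, under 4.24, for these 4 genes. Hsf2bp, a meiotic recombination protein, was at 7.16 and 7.33 against 4.79 and 4.62, a difference of 2.54 ± 0.20, and the piRNA helicase Tdrd12 was higher by 2.00 ± 0.19. Dazl and Ddx4, germ cell RNA regulators, differed by 0.52 ± 0.16 and 0.46 ± 0.20.

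Many germline promoters hold the E-box CACGTG, which MGA and MAX bind as part of a Polycomb complex that silences such genes. Promoter windows from RefSeq (GRCm38.p6), 250 bases before the start of transcription, were found by symbol for 21 of the 24 tested germline genes, and 7 of the 21 hold the E-box, against 6.86% of 27025 genes with a window. It is in 3 of the 9 lower genes (Mael, Sycp1 and Stk31), in 0 of 2 higher ones with a window and in 4 of 10 that were not called. The 3 stretches are shown because they belong to genes near background in ESC and above it in ICM. The E-box is in capitals, and a palindrome reads alike on both strands.
Mael, chr1:166238937-166238992, minus strand: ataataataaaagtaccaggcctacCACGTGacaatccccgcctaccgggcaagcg
Sycp1, chr3:102936164-102936219, minus strand: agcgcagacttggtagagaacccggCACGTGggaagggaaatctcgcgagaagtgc
Stk31, chr6:49395459-49395514, plus strand: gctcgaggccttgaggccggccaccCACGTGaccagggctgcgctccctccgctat
The E-box starts 223, 94 and 55 bases before the listed start in Mael, Sycp1 and Stk31. A match to these letters is a description and does not show that a factor binds there, and this holds for the motifs below too. The E2F6 site TCCCGC, searched in the same windows, is in 7 of the 21 genes, against 18.8% of all genes.

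Of 32 imprinted genes tested 10 were higher in ESC and 3 lower, and the median was 0.46. The shares were 31.2% higher and 9.38% lower, beside 5.82% and 5.57% of all tested genes, and the difference was not tested. Besides Plagl1 and Cd81, given above, the paternally expressed Peg3 was at 7.46 and 7.59 in ESC and at 5.67 and 5.64 in ICM, a difference of 1.87 ± 0.11 (adjusted p = 1.5e-05). Mest, also expressed from the paternal allele, was at 7.95 and 8.02 against 6.12 and 6.13, a difference of 1.86 ± 0.14. The maternally expressed Phlda2, which limits placental growth, was at 6.39 and 6.13 against 3.30 and 3.06, a difference of 3.08 ± 0.24. ESC were above ICM for the 3 genes, as for every gene called higher. Genes of both parental kinds were among the higher ones, 6 of 17 paternal and 4 of 15 maternal. The 3 lower genes were the receptor Igf2r, which clears IGF2 (-2.36 ± 0.27), Sfmbt2, a Polycomb protein (-1.91 ± 0.15), and the amino acid carrier Slc38a4 (-1.45 ± 0.16). Igf2 itself differed by -0.16 ± 0.20. The arrays do not tell the 2 alleles apart.

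Xist, the RNA that coats and silences an X chromosome in female cells, was at 4.28 and 4.49 in ESC and at 9.29 and 9.34 in ICM, a difference of -4.92 ± 0.22 (adjusted p = 3.44e-06). EpiSC had 3.7 and 4.4. Eif2s3y, a Y-linked translation factor, was at 5.18 and 5.42 in ESC and at 7.12 and 7.04 in ICM, a difference of -1.78 ± 0.15. The Xist and Eif2s3y transcripts were thus higher on the ICM arrays than on the ESC arrays. The other tested Y-linked gene of the list differed by 0.27 and was not called. Of 6 Y-linked genes on the array these 2 were tested, and the others were too dim to test. Of the other tested genes of the sex chromosome list, the X-linked Rlim, an activator of Xist, was called at -1.01 ± 0.13, and lay under the size limit without ESC replicate 1 (-0.98) or ICM replicate 2 (-0.95) and after quantile normalization (-0.91).

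Many glycolysis genes were higher in ESC. Of 26 tested genes for glycolysis and lactate 12 were higher in ESC (46.2%) and 1 lower (3.85%), beside 5.82% and 5.57% of all tested genes. The median was 0.86. Triose phosphate isomerase (Tpi1) was at 9.97 and 9.94 in ESC and at 7.58 and 7.35 in ICM, a difference of 2.49 ± 0.13 (adjusted p = 5.64e-06). Phosphoglycerate kinase (Pgk1), which makes ATP, was at 9.97 and 9.86 against 7.86 and 7.71, a difference of 2.13 ± 0.14. The muscle-type pyruvate kinase (Pkm) was at 10.57 and 10.48 against 8.99 and 9.19, a difference of 1.44 ± 0.12. The ESC arrays were above the ICM arrays for all 3, as for every gene called higher. At the entry of the pathway the glucose carrier Slc2a3, given above, and hexokinase 2 (Hk2, 1.51 ± 0.15) were higher, while the carrier Slc2a1 differed by 0.29 ± 0.18. Where pyruvate enters the mitochondrion, Pdk1, given above, and Pdk3 (2.60 ± 0.15), which both switch off pyruvate dehydrogenase, were higher. The pyruvate carrier Mpc1 was the lower gene, at 5.28 and 4.60 against 6.79 and 6.24 (-1.57 ± 0.35). It was not called without ESC replicate 2 (adjusted p = 0.0841) or ICM replicate 1 (0.0721), and its other probe set gave -0.22. Gapdh differed by 0.33 ± 0.12. The EpiSC minus ICM differences of Tpi1, Pgk1, Pkm, Pdk1 and Pdk3 were 2.08, 1.81, 1.3, 3.98 and 2.27, each called.

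Genes for oxidative phosphorylation stayed within narrow bounds. Of 42 tested 0 were called in either direction, beside 11.4% of all tested genes. Differences ran from -0.54 to 0.63 with a median of -0.03. Of 19 ribosomal protein genes 0 were called, with differences from -0.32 to 0.78. Whether these lists differ from the glycolysis list was not tested. Nearly all were bright enough to be measured, with 41 and 19 genes above 4.24 on both ESC arrays and on both ICM arrays.

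**Figure D4:**
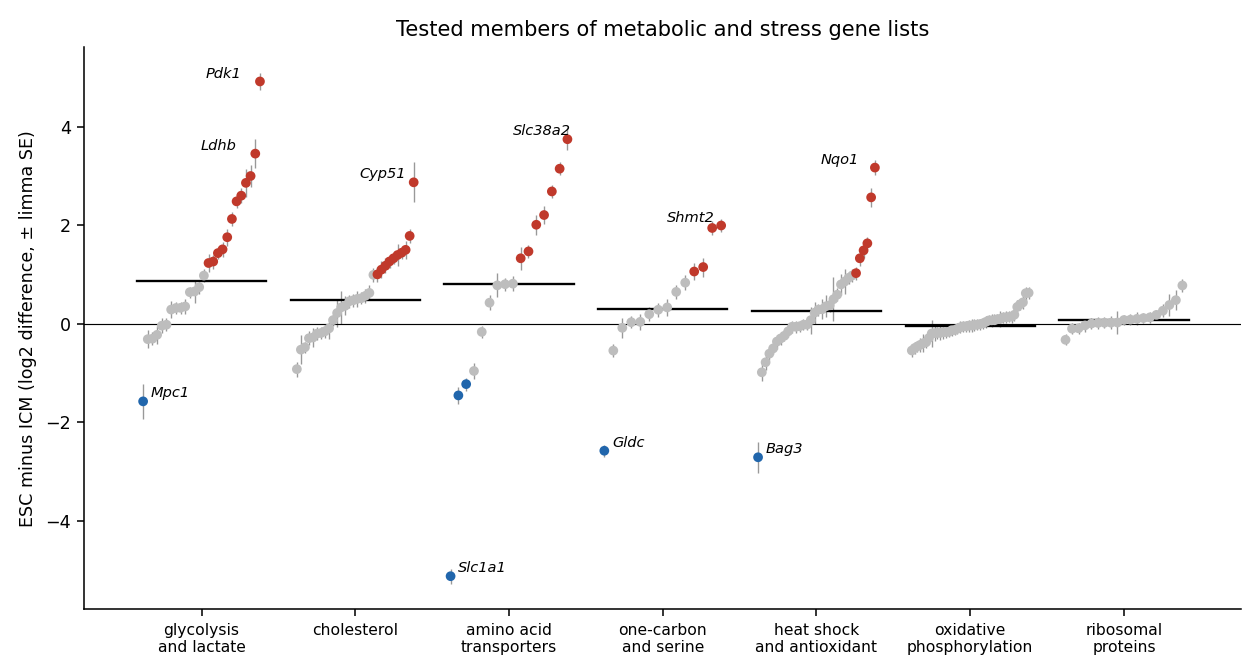
ESC minus ICM difference on the log2 scale for every tested member of 7 gene lists, with limma's SE, members called higher in red, called lower in blue, not called in grey, and a black line at each list's median. The medians are 0.86 for glycolysis and lactate and -0.03 for oxidative phosphorylation, in which 0 of 42 genes were called.

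Hypoxia targets, which share glycolytic genes with the list above, were split. Of 21 tested 5 were higher (23.8%) and 3 lower (14.3%), beside 5.82% and 5.57% of all tested genes. Besides Pdk1, Pgk1 and Hk2 the higher genes were aldolase C (Aldoc, 1.24 ± 0.18) and the angiogenic factor Vegfa, at 6.39 and 6.48 against 5.22 and 4.99, a difference of 1.33 ± 0.13. The 3 lower genes were hydroxylases that need oxygen: Egln1, which marks HIF1A for degradation, was at 6.61 and 6.55 against 8.19 and 8.03, a difference of -1.53 ± 0.14, and the collagen prolyl hydroxylases P4ha1 and P4ha2 differed by -1.90 ± 0.16 and -2.24 ± 0.19. The hypoxia response core NACGTGC, searched on both strands, is in the promoter window of 12 of 20 listed genes, against 5.61% of all genes. It is in 1 of 5 higher genes, 3 of 3 lower ones and 8 of 12 that were not called. The 4 stretches are shown because genes that hold these letters went both ways. The match is in capitals, and in Pgk1 and P4ha1 it stands on the other strand.
Pgk1, chrX:106186943-106186999, plus strand: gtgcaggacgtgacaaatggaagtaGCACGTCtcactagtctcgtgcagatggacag
Egln1, chr8:124949292-124949348, minus strand: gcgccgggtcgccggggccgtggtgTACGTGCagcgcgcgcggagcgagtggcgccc
P4ha1, chr10:59323254-59323295, plus strand: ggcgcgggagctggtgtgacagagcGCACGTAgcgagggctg
P4ha2, chr11:54100820-54100876, plus strand: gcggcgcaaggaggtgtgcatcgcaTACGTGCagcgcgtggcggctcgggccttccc

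A part of the cholesterol synthesis genes was higher in ESC. Of 30 genes of synthesis, uptake and efflux 10 were higher (33.3%) and 0 lower (0.0%), beside 5.82% and 5.57% of all tested genes. The median was 0.49, and 9 of the 10 were among the 21 synthesis enzymes and regulators, of which 12 did not pass. Msmo1, a sterol methyl oxidase, was at 7.56 and 7.55 in ESC and at 5.89 and 5.65 in ICM, a difference of 1.79 ± 0.14 (adjusted p = 5.16e-05). Srebf2, the factor that drives the pathway, was at 8.2 and 8.11 against 6.66 and 6.75, a difference of 1.44 ± 0.12. Squalene epoxidase (Sqle, 1.5 ± 0.19), squalene synthase (Fdft1, 1.27 ± 0.13) and Mvd (1.33 ± 0.12), a mevalonate pathway enzyme, were higher. Hmgcs1, an early enzyme, differed by 0.99 ± 0.14, at the size limit, and was called without ESC replicate 2 (1.05), without ICM replicate 1 (1.13) and after quantile normalization (1.07). Pmvk and Fdps differed by 0.08 ± 0.13 and -0.15 ± 0.14. The EpiSC minus ICM differences were 2.37 for Msmo1, 1.44 for Srebf2, 2.06 for Sqle and 1.73 for Mvd, and ESC minus EpiSC was -0.59, 0.0032, -0.56 and -0.39, none called.

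Amino acid carriers changed in both directions, with a median of 0.81. Of 16 tested 7 were higher (43.8%) and 3 lower (18.8%), beside 5.82% and 5.57% of all tested genes. The glutamine and neutral amino acid carrier Slc38a2 was at 8.06 and 7.97 in ESC and at 4.65 and 3.88 in ICM, a difference of 3.75 ± 0.22 (adjusted p = 1.38e-05). The cationic amino acid carrier Slc7a3 was at 7.43 and 7.43 against 4.40 and 4.16, a difference of 3.15 ± 0.13. Slc38a1, another glutamine carrier, was at 8.03 and 8.13 against 5.39 and 5.41, a difference of 2.69 ± 0.12. The glutamine exchanger Slc1a5 and the arginine carrier Slc7a1 were higher by 2.21 ± 0.18 and 2.01 ± 0.20. The lower carriers were Slc1a1 and Slc38a4, given above, and Slc1a3 (-1.22 ± 0.13), so both glutamate carriers that were called were lower, while the glutamine carriers named here were higher. In one-carbon and serine metabolism 4 of 14 genes were higher (28.6%) and 1 lower (7.14%). The mitochondrial enzymes Shmt2 (2.00 ± 0.14) and Mthfd1l (1.95 ± 0.14) were higher. The glycine decarboxylase Gldc was at 5.54 and 5.58 in ESC and at 8.15 and 8.12 in ICM, a difference of -2.58 ± 0.12.

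Of 18 genes of the integrated stress response, in which the factor ATF4 switches on amino acid supply, 3 were higher and 0 lower. These are 16.7% and 0.0%, beside 5.82% and 5.57% of all tested genes. The lower count rose without ESC replicate 2 or without ICM replicate 1. Asparagine synthetase (Asns) was at 9.66 and 9.44 in ESC and at 7.01 and 7.12 in ICM, a difference of 2.48 ± 0.18 (adjusted p = 3.48e-05). Nupr1, a stress-induced chromatin protein, was at 7.86 and 7.97 against 5.51 and 5.47, a difference of 2.43 ± 0.19. Herpud1, which serves protein degradation at the endoplasmic reticulum, was called at 1.04 ± 0.20 and lay under the size limit without ESC replicate 1 (0.96), without ICM replicate 1 (0.96) and with centred arrays (0.95). Atf4 itself and its target Ddit3 differed by 0.24 ± 0.11 and 0.03 ± 0.22. The ATF4 element TGATGNAA, searched on both strands, is in the promoter windows of 5 of the 17 listed genes that had one, against 3.91% of all genes. It is in 3 of 3 higher genes and 2 of 14 that were not called. These stretches are shown with the element in capitals. In Nupr1 and Herpud1 it stands on the other strand.
Asns, chr6:7693210-7693257, minus strand: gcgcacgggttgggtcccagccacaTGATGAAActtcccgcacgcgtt
Nupr1, chr7:126625548-126625605, minus strand: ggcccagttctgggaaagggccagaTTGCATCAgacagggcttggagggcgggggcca
Herpud1, chr8:94386292-94386349, plus strand: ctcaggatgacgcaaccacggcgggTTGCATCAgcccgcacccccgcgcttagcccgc

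Among 21 antioxidant and metal response genes 5 were higher (23.8%) and 0 lower (0.0%), beside 5.82% and 5.57% of all tested genes. The quinone reductase Nqo1 was at 8.30 and 8.25 in ESC and at 5.29 and 4.91 in ICM, a difference of 3.17 ± 0.15 (adjusted p = 3.44e-06), and it was higher in ESC than in EpiSC by 3.44. Catalase (Cat) and the transferrin receptor (Tfrc), which takes up iron, were higher by 1.63 ± 0.12 and 1.49 ± 0.16. Of 11 chaperone genes the small heat shock protein Hspb1 was higher (2.57 ± 0.19). The cochaperone Bag3 was lower, at 5.22 and 5.24 against 7.74 and 8.13 (-2.71 ± 0.31), and without ICM replicate 1 the lower count of the list was 2, while Hspa1a and Hsp90aa1 differed by 0.36 ± 0.22 and -0.15 ± 0.12. Of 34 p53 targets 0 were higher and 4 lower, among them the stress sensor Sesn1 (-1.40 ± 0.14) and the apoptosis effector Perp (-2.13 ± 0.22). The lower count fell in every fit with 1 array left out, and the higher count rose without ICM replicate 2. For the p53 targets the shares were 0.0% higher and 11.8% lower, beside 5.82% and 5.57% of all tested genes. The cell cycle inhibitor Cdkn1a was at 10.02 and 9.78 against 9.21 and 9.0, a difference of 0.80 ± 0.21.

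Interferon-linked and MHC class I genes were higher for 6 and lower for 2 of 21. The shares were 28.6% and 9.52%, beside 5.82% and 5.57% of all tested genes. Besides Ifitm3, the relative Ifitm2 (2.06 ± 0.22), the RNA sensor Ddx58 (1.86 ± 0.18) and Bst2 (1.74 ± 0.26), which tethers virus particles, were higher. The MHC class I light chain B2m was at 8.65 and 8.66 in ESC and at 7.28 and 7.42 in ICM, a difference of 1.31 ± 0.13. The heavy chain H2-K1 went the other way, at 5.53 and 5.76 against 7.95 and 8.2, a difference of -2.43 ± 0.21. The immunoproteasome subunit Psmb9 differed by -2.42 ± 0.18. H2-K1 has close copies among the class I genes.

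A part of the adhesion and junction genes was lower in ESC, and a part of the cytoskeletal genes higher. Of 23 adhesion and junction genes 8 were lower in ESC and 0 higher (1 without ESC replicate 2 and 2 without ICM replicate 1), with a median of -0.24, and of 20 cytoskeletal genes 5 were higher and 0 lower. The gap junction protein Gja1 was at 7.10 and 6.97 in ESC and at 9.66 and 9.37 in ICM, a difference of -2.48 ± 0.27 (adjusted p = 0.000293). Desmoplakin (Dsp), which anchors keratins at desmosomes, was at 4.08 and 4.0 against 5.94 and 6.45, a difference of -2.16 ± 0.27. The polarity protein Pard3 (-1.33 ± 0.11), the epithelial splicing factor Esrp1 (-1.47 ± 0.23) and the adhesion molecule Epcam (-1.09 ± 0.18) were lower. E-cadherin (Cdh1), the main adhesion molecule of both tissues, was at 10.13 and 10.25 against 9.81 and 9.5, a difference of 0.54 ± 0.31 (adjusted p = 0.232). On the cytoskeletal side, Tubb3, a tubulin known from neurons, was at 6.74 and 6.38 against 3.86 and 3.15, a difference of 3.06 ± 0.23. The actin crosslinker Flna and the intermediate filament protein vimentin (Vim) were higher by 2.25 ± 0.22 and 1.46 ± 0.24.

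A list of neural genes had 8 higher (53.3%) and 0 lower (0.0%) of 15 tested, beside 5.82% and 5.57% of all tested genes. The median was 1.01. The list was drawn up with earlier results known and holds Bex1, Bex2, Bex4 and Stmn2, which are among the largest rises above, so its count in part restates them. The other higher genes were Tubb3, given above, the neurofilament genes Nefl (1.88 ± 0.22) and Nefm (1.01 ± 0.14), and the adhesion molecule Ncam1 (1.32 ± 0.31). Nefm fell under the size limit without ESC replicate 1 (0.86), after quantile normalization (0.99) and with each array centred on its median (0.93). Ncam1 missed the adjusted p, at a similar size, without ESC replicate 1 (1.41) or ESC replicate 2 (1.23), and missed both limits without ICM replicate 1 (0.81). Some genes known from neural progenitors were not called. Sox1 was at 4.82 and 4.97 in ESC and at 4.18 and 3.90 in ICM. Its difference of 0.86 ± 0.18 (adjusted p = 0.0068) stayed under the size limit. Nes and Neurog2 differed by -0.58 ± 0.28 and 0.04 ± 0.14, and Pax6 and Zic1 were too dim to test. The EpiSC minus ICM differences were 3.22 for Tubb3 and 2.53 for Nefl, both called.

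Cell cycle genes were higher for 7 of 54 and lower for 0, with a median of 0.46. Cdk6, a kinase of the G1 phase, was at 7.42 and 7.37 in ESC and at 4.33 and 3.82 in ICM, a difference of 3.32 ± 0.18 (adjusted p = 7.83e-06). Its cyclin partner Ccnd1, given above, was higher too, as was cyclin E1 (Ccne1, 1.22 ± 0.12). The replication helicase subunit Mcm3 was higher by 1.25 ± 0.15, the only 1 called of 22 replication genes. The mitotic cyclins Ccna2 and Ccnb2 differed by 0.12 ± 0.16 and 0.46 ± 0.17. Of 26 lysosome and autophagy genes 5 were lower (19.2%) and 1 higher (3.85%), beside 5.57% and 5.82% of all tested genes. Besides Calcoco2, cathepsin C (Ctsc) was at 6.45 and 6.46 against 9.27 and 9.19, a difference of -2.77 ± 0.32. The lower count was 3 without ESC replicate 2 and 3 after quantile normalization, and the higher count was 0 without ICM replicate 2. Among 47 chromatin regulators 3 were higher and 1 lower, shares of 6.38% and 2.13% beside 5.82% and 5.57% of all genes. Without ICM replicate 2 the higher count was 5, and the lower count was 2 without ESC replicate 1 and 3 without ICM replicate 1. The lower gene was the SWI/SNF ATPase Smarca2, at 4.73 and 4.60 against 6.70 and 6.91, a difference of -2.14 ± 0.24. The Polycomb core Ezh2, Eed and Suz12 differed by 0.29 ± 0.17, 0.23 ± 0.13 and -0.65 ± 0.14.

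**Figure D5:**
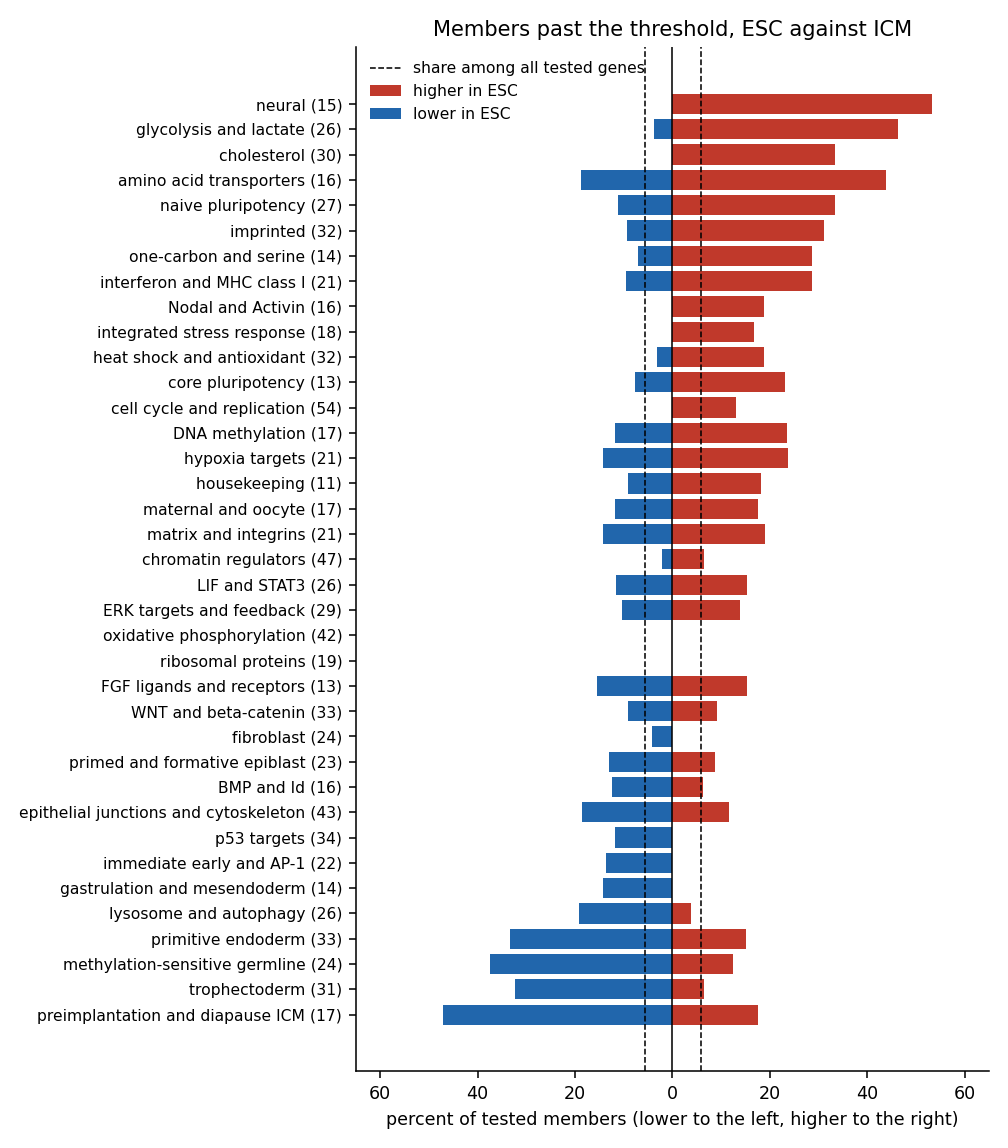
Percent of the tested members of each gene list with at least 10 tested members that were called higher (right, red) or lower (left, blue) in ESC than in ICM, with the number tested in brackets and dashed lines at the shares among all tested genes, 5.82% and 5.57%. Glycolysis and lactate and the neural list reach far to the right, and the preimplantation, trophectoderm, germline and primitive endoderm lists far to the left. The lists were chosen with earlier results known, and some hold genes picked as largest changes.

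Some genes often used as controls differed between the groups. Of 11 housekeeping genes Pgk1 and B2m were higher and Hprt was lower, at 8.76 and 8.71 in ESC and at 9.92 and 9.94 in ICM, a difference of -1.2 ± 0.13. Actb, Gapdh and Tbp differed by -0.32 ± 0.15, 0.33 ± 0.12 and -0.08 ± 0.16.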

How the data were processed

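The deposited log2 values of Affymetrix Mouse Gene 2.1 arrays were used as the authors made them, without further normalization. The submitters' processing notes name Affymetrix Expression Console 1.3.1 as the tool. That they are log2 was read from the deposited values, and the summarisation method is not given in the sources used here. RNA was amplified with the Ovation Pico WTA kit, per the labels' protocols. Of 41345 probe sets, 23521 had 1 gene symbol in the platform annotation, and the brightest (highest mean over 8 arrays) stood for each of 22180 genes. Group means were fitted over the 8 arrays with limma 3.58.1 in R 4.3.3, without the replicate number as a block, and tested on simulated data. Genes named are the 15 largest changes each way without overlap of the arrays, a marker panel, and from each list up to 6 called members per direction with the smallest adjusted p and up to 4 others in list order. Krt8, Nefm, Ncam1 and Foxq1 fall outside this rule and were named after their values were seen. The members and lists were chosen with earlier results of these data known. Other motifs were searched in the windows of listed genes, and their stretches are not shown. The STAT site was in 0 of 23 LIF genes (against 1.09% of all genes) and the ETS site in 0 of 20 ERK genes (3.23%). The sterol element was in 1 of 23 cholesterol genes (1.22%) and the TCF/LEF site in 3 of 17 WNT genes (3.72%). The metal response core was in 16 of 27 heat shock and antioxidant genes (47.2%) and the cAMP element in 2 of 18 immediate early genes (1.77%). The number of arrays limits the precision. Same-numbered ESC and ICM arrays did not deviate together (r = 0.042 across genes), so numbers were not taken as pairs.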

Additional observations from a re-analysis of the deposited data

How the results depend on the processing

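The 791 higher and 757 lower genes stayed within 1.5 times these counts under the alternatives tried, other than the fold limit: with no fold limit 2419 genes were higher and 2069 lower, and with a limit of 2 on the log2 scale 168 and 177. Leaving out 1 array at a time gave 715 to 830 higher and 695 to 754 lower genes. With the replicate number as a block, 788 were higher and 757 lower. Centring each array on its median over tested genes gave 677 higher and 876 lower, moved the share of higher genes among calls from 51.1% to 43.6% and shifted the median difference to -0.06, so calls of size near 1 depend on the scale. No called gene named here changed direction under these alternatives. Genes with several tested probe sets numbered 657: of 132 with any probe set called, 55 had all of them called and 0 had opposite calls. With 2 arrays per group and no detection calls, levels near 4.24 give no reliable fold.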
